A study of Rattus norvegicus with 4 samples.

Results

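The machinery that tags proteins with ubiquitin and breaks them down was examined in RT4D6 cells through 75 genes. Of these, 44 belong to the proteasome, its assembly chaperones and its regulators, and 29 encode E2 ubiquitin-conjugating enzymes or their inactive relatives. The other two, Psmc3ip and Psme3ip1, carry a matching symbol but are no subunits, and they enter none of the counts of proteasome or E2 genes. The rule that picked them used the symbol alone (Psma to Psmg followed by a digit, or Ube2) and no measured value. It was applied to the 14217 genes to which the platform annotation ties a probe set of their own. The choice of this rule was made with earlier results of these data known. Each gene was represented by its brightest probe set, judged by mean log2 signal over the 4 arrays. Together the 75 genes have 112 of the 20826 probe sets with a single symbol.

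RT4D6 cells are a rat Schwannoma line. They derive from a tumour of Schwann cells, which are the glia that ensheathe peripheral nerve fibres. The study asked which genes depend on Sox10, a transcription factor of neural crest cells and their glial descendants, by introducing siRNA. Both groups were RT4D6 cells carrying an siRNA for 48 h. In 2 samples it was the wild type siRNA, which is specific to Sox10, and in 2 it was the mutant siRNA, the control. The samples were made as independent pairs of 1 specific and 1 mutant siRNA sample each, all of this single line, and each was measured on a one-colour Affymetrix rat expression array. Values below are MAS5 signals as deposited, a linear measure of probe set brightness, and log2 fold changes are wild type minus mutant siRNA after each array was centred on its median, given with the standard error (SE) of the fit. A gene was called lower or higher at a Benjamini-Hochberg adjusted p under 0.05 from limma, a linear model that shares the estimate of spread between probe sets. Signals of different probe sets cannot be set against each other as amounts of RNA.

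The proteasome is a barrel, the 20S particle, built of outer alpha rings that gate the entrance and inner beta rings that hold the protease sites. A cap, the 19S particle, binds ubiquitin-tagged proteins, and its ATPases unfold them and thread them into the barrel. Ubiquitin reaches a substrate by way of an activating enzyme (E1), a conjugating enzyme (E2) and a ligase (E3), and the E2 often sets which kind of chain is built. Other E2 enzymes carry relatives of ubiquitin such as Nedd8 and Isg15.

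Sox10 signals were 163 and 335 with the wild type siRNA, against 2873 and 2890.1 with the mutant siRNA, so that each pair differed in the direction of its labels. The median signal of the 4 arrays was between 101.3 and 110.4, and a measure of RNA quality, the signal at the 3' end of Gapdh over that at the 5' end, was between 1.06 and 1.11. The same ratio for beta-actin was less even, at 1.54 and 1.39 with the wild type siRNA, against 1.87 and 1.52 with the mutant siRNA, and was higher with the mutant siRNA in both pairs. Its part in the results was not tested. Of 9 measured Schwann cell and glial markers, 9 were down-regulated by the specific siRNA, against 10.6% of all genes tested. Their summed signal was 4963 and 6116.5 with the wild type siRNA and 33762 and 24968.5 with the mutant siRNA. Of 9 smooth muscle markers, 5 could be tested, and 4 of these lay above 0. Of the 5, 3 (Acta2, Tagln and Myl9) were up-regulated (60.0%, against 17.4% of all genes tested). The summed signal of the 9 was 32557 and 44397 with the wild type siRNA and 6867 and 12465 with the mutant siRNA. Another of the 5 went the other way, with a log2 fold change of -0.84, and was not called. In it both wild type siRNA arrays lay below both mutant siRNA arrays. Cnn1 and Des, which mark contractile muscle, stayed below the median of every array. Of the 6 fibroblast, 7 macrophage and leukocyte and 3 endothelial markers, 2, 1 and 1 could be tested, and none of these was called, at unadjusted p under 0.05 in 2, 0 and 0. The glial and muscle markers that were called moved with the siRNA comparison as a whole, and their part in the changes given below was not tested. In these bulk samples fewer cells of a kind and less RNA per cell cannot be told apart.

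All 44 proteasome genes and 26 of the 29 E2 genes were bright enough to test, that is, no dimmer than the array's median on 2 or more arrays. Ube2d2b, Ube2ql1 and Ube2u were not. Among the proteasome genes 9 were up-regulated and 2 down-regulated by the specific siRNA, and 33 were not called. Over all 9163 genes tested, 17.4% were called higher and 10.6% lower, so that the 20.5% of proteasome genes called higher lay near the background. The median log2 fold change of the 44 was 0.32, against 0.19 over all genes, and changes are to be read relative to that shift. Among the 26 E2 genes tested, 9 were called higher (34.6%) and 2 lower (7.69%), with a median of 0.39. The proteasome genes ran between -1.14 and 0.88, and the E2 genes between -1.97 and 1.43. Both wild type siRNA arrays lay above both mutant siRNA arrays in deposited signal in 25 of 44 proteasome genes and 15 of 26 E2 genes, which 40.1% of all genes did. They lay below both in 5 and 8, which 28.0% of all genes did.

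The counts of genes called higher depended on scaling and on single arrays. With quantile normalization 3 proteasome genes were higher and 2 lower, and 5 E2 genes were higher and 4 lower. With the signals as deposited these were 6 and 2, and 5 and 4. Without wild type siRNA replicate 1, mutant siRNA replicate 1 or mutant siRNA replicate 2, 0 proteasome genes were called higher by limma, with 9, 10 and 11 higher at an unadjusted p under 0.05, and 7 were called without wild type siRNA replicate 2. With all arrays, 16 proteasome genes were higher at an unadjusted p under 0.05. The same 4 removals left 4, 3, 2 and 5 E2 genes higher, in the order wild type replicate 1, mutant replicate 1, mutant replicate 2 and wild type replicate 2. With the same-numbered arrays as pairs (a replicate block), 17 proteasome genes were higher and 2 lower, and 12 E2 genes were higher and 4 lower. No share over all genes is given for the block or the other scalings. Their counts are therefore not to be set against the shares of all genes called in the main fit. Of the 22 proteasome and E2 genes called, 20 lost their call under at least 1 of these settings or in a fit without the intensity trend, and Psma5 and Ube2j1 kept it under all of them.

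**Figure D1:**
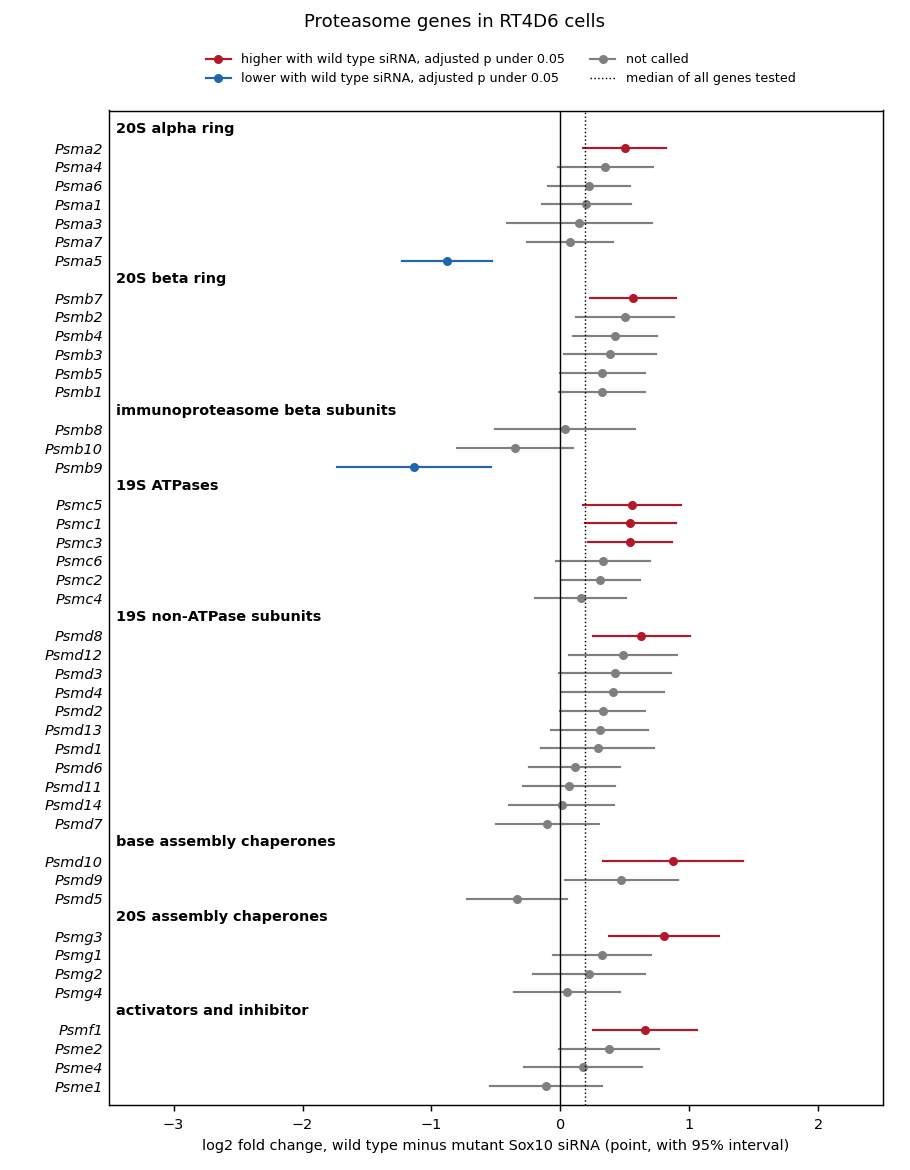
Log2 fold change (wild type minus mutant Sox10 siRNA) of the 44 proteasome genes, by role. Points are estimates from 2 arrays a group and bars 95% intervals, red for the 9 genes called higher, blue for the 2 called lower, grey for the rest. Solid line, 0; dotted line, median of all genes tested (0.19). Psma5 and Psmb9 stand apart to the left of the other members of their groups.

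In the alpha ring, Psma5 was down-regulated by the specific siRNA while the other 6 measured subunits had log2 fold changes above 0. Psma5 signals were 3593.5 and 3681 with the wild type siRNA, against 7106 and 7025 with the mutant siRNA. The 2 arrays of each group lay close together, and the groups were far apart. Its log2 fold change was -0.88 (SE 0.15, adjusted p = 0.00644), a level 1.84-fold higher with the mutant siRNA, and Psma5 was called under every alternative tried with limma. Psma2 was the highest of the ring among probe sets tied to a single gene. It had 11246 and 10307 with the wild type siRNA, against 8079 and 8024 with the mutant siRNA and a log2 fold change of 0.50 (SE 0.14, adjusted p = 0.0325). The groups did not overlap, but the Psma2 call was lost under 8 of 13 alternatives. The lowest of the others was Psma7, at 0.08 (adjusted p = 0.733). A probe set shared by Psma3 and Psma3l, outside these counts, was called higher at 0.58. The alpha subunits stand in the ring in equal number. With the signals as deposited and with quantile normalization 5 of 7, not 6, lay above 0. Over all genes tested 5701 of 9163 lay above 0, and 4 of the 7 alpha subunits exceeded the median of all genes.

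The 6 measured standard beta subunits all had log2 fold changes above 0 under every scaling tried. With arrays centred on their medians, all 6 lay above the median of all genes. In each of the 6 both wild type siRNA arrays lay above both mutant siRNA arrays, which 40.1% of all genes tested did. Of all genes tested, 5701 of 9163 lay above 0. The 6 subunits ran between 0.32 for Psmb1 and 0.56 for Psmb7. Psmb7, which carries the trypsin-like protease site, was the only one called. Its signals were 12393 and 10747 with the wild type siRNA, against 8509 and 7984 with the mutant siRNA, with a log2 fold change of 0.56 (SE 0.15, adjusted p = 0.0247). Psmb1, a subunit without a protease site, had 15482 and 13258.5 with the wild type siRNA, against 12800.0 and 11438 with the mutant siRNA, without overlap but not called (0.32 (SE 0.15, adjusted p = 0.131)). Psmb5, the chymotrypsin-like subunit and target of proteasome inhibitor drugs, stood at 0.33 (interval -0.00 to 0.66). With the replicate block all 6 were called, and the share of all genes called under that fit is not given here.

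The immunoproteasome subunits take the place of standard beta subunits in cells exposed to interferon and change which peptides are made for antigen presentation. Of the 3, only Psmb9 was called, and it was lower. Psmb9 signals were 206 and 173 with the wild type siRNA, against 434 and 442 with the mutant siRNA. The wild type siRNA arrays were both far below the mutant siRNA arrays. Psmb9 thus had a log2 fold change of -1.14 (SE 0.26, adjusted p = 0.016). Leaving out a mutant siRNA array ended the call (adjusted p = 0.0844 without replicate 1 and 0.0861 without replicate 2, limma). Psmb10 had 1031 and 858 with the wild type siRNA, against 1236 and 1295 with the mutant siRNA, without overlap but not called (-0.35 (SE 0.20, adjusted p = 0.214)). Psmb8 had 383 and 398 with the wild type siRNA, against 432 and 375 with the mutant siRNA and overlapping groups (0.04 (SE 0.24, adjusted p = 0.927)).

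Of 17 measured genes of interferon signalling and antigen presentation, 9 could be tested, with a median log2 fold change of -0.13. Of these 9, 3 were down-regulated (33.3%) and 2 up-regulated (22.2%), against 10.6% and 17.4% of all genes tested. Irf1, a transcription factor that acts on Psmb9 in the interferon response, had 467 and 369 with the wild type siRNA, against 854 and 809.5 with the mutant siRNA (-0.92 (SE 0.22, adjusted p = 0.0195)). Stat2, a subunit of the factor that type I interferon activates, went the other way, with 1007 and 687 with the wild type siRNA, against 299.8 and 210.4 with the mutant siRNA (1.81 (SE 0.29, adjusted p = 0.00466)). Ifit2, an interferon-induced gene, was lower at -1.01. The classical interferon genes Mx1, Mx2, Oas1a, Ifit1 and Isg15 stayed too dim to test in both groups. The activator subunits Psme1 and Psme2, which cap the barrel in place of the 19S particle and are likewise interferon-induced, were not called. Psme1 had 4522 and 3683 with the wild type siRNA, against 5246 and 4132 with the mutant siRNA, with overlapping groups (-0.11 (SE 0.19, adjusted p = 0.692)), and Psme2 had 3081 and 3028 with the wild type siRNA, against 2599 and 2383 with the mutant siRNA, without overlap (0.37 (SE 0.17, adjusted p = 0.132)).

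The 6 ATPases that form the base of the 19S cap were all above 0 under every scaling tried. With arrays centred on their medians, 5 were above the median of all genes and 3 were called higher. They ran between 0.16 for Psmc4 and 0.56 for Psmc5. Psmc5 had 7170.0 and 5773 with the wild type siRNA, against 4324 and 4948 with the mutant siRNA (0.56 (SE 0.17, adjusted p = 0.0405)), and Psmc1 and Psmc3 stood at 0.54 and 0.54. Psmc4 had 5412 and 4872 with the wild type siRNA, against 4669 and 5061 with the mutant siRNA, with overlapping groups (0.16 (SE 0.15, adjusted p = 0.473)). With the signals as deposited only Psmc3 was called, and with quantile normalization 0 of 6 (limma, with 3 at an unadjusted p under 0.05). Of the 11 measured non-ATPase subunits of the cap, 10 were above 0 (8 with the signals as deposited or quantile normalization), 7 were above the median of all genes, and 1 was called. That was Psmd8, a lid subunit, with 5191 and 4341 with the wild type siRNA, against 3194 and 3294.5 with the mutant siRNA (0.63 (SE 0.16, adjusted p = 0.0259)). The lowest was Psmd7, partner of the cap's deubiquitinase, with 3218.5 and 3345 with the wild type siRNA, against 3359 and 4111 with the mutant siRNA, without overlap but not called (-0.10 (SE 0.17, adjusted p = 0.695)). The deubiquitinase itself, Psmd14, stood at 0.01 (interval -0.40 to 0.42).

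The study took as the core of a Sox binding site ACAAT, or ATTGT on the other strand. That core was searched on both strands in the RefSeq promoter windows of the rat build GRCr8, 250 bases before to 50 bases after each gene's start, and 67 of the 75 genes, Psmc3ip and Psme3ip1 included, matched a window. It was present in 9 of 70 windows of these genes (12.9%) and in 33.6% of 33365 windows of all genes. Over the proteasome genes, 7 of 40 windows held it (17.5%). Among the 9 proteasome genes called higher, 4 windows held it (44.4%), those of Psmc5, Psmd8, Psmc1 and Psmg3. Among those not called, 3 of 29 did (10.3%). These are few windows, and the difference was not tested. Of the genes called lower that matched a window (Psma5, Psmb9, Ube2t and Psmc3ip), 0 of 4 windows held it. A match is a description of letters and not a site. These windows cover only part of the region the study searched, which reached further upstream and to the end of the first intron. The Psmc5 and Psmd8 windows, the ones with a pair of cores each, are shown beside that of Psma5, a lower member with no core, chosen after its values were seen. Capitals mark the core, with first bases at -217 and -116 from the start in Psmc5 (chr10:91687303-91687602, plus strand) and at -47 and -38 in Psmd8 (chr1:93608640-93608939, minus strand). Psma5 lies at chr2:198584255-198584554, plus strand.
Psmc5: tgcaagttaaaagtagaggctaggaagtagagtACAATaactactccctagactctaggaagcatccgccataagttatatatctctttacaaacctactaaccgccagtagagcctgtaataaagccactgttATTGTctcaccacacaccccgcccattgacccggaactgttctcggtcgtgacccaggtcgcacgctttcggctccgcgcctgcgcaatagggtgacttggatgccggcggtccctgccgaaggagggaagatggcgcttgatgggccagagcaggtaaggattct
Psmd8: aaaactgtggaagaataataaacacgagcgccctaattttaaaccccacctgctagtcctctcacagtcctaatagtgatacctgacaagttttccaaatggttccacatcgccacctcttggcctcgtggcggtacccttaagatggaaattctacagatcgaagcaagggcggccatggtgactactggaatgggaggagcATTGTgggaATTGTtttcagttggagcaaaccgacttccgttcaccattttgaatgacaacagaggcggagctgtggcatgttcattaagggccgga
Psma5: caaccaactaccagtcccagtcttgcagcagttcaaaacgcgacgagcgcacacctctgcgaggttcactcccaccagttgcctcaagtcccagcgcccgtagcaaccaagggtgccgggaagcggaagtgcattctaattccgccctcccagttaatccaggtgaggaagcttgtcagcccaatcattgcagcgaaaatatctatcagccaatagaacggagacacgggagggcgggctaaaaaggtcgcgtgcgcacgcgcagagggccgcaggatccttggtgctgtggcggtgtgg

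A second motif, TGANNNNGC on either strand, with N any base, is a loose form of the core of the antioxidant response element. That element is the kind of sequence through which the factor Nfe2l1 is known to raise proteasome genes in mammalian cells. The loose motif stood in 20 of 40 proteasome windows and in 40.6% of all windows. Of the 9 proteasome genes called higher, 2 had it (22.2%). Both of the proteasome genes called lower, Psma5 and Psmb9, had it. These are matches to the loose letters only, and whether any is an antioxidant response element was not tested.

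Helpers that build the proteasome held the 2 largest increases among the proteasome genes with all arrays in the fit. Psmd10, a chaperone of the cap's base also known as gankyrin, had 2807 and 1850.1 with the wild type siRNA, against 1467 and 1174 with the mutant siRNA. The groups did not overlap, but the wild type siRNA arrays were far apart from each other. The log2 fold change was 0.88 (SE 0.24, adjusted p = 0.0293), and the call was lost without wild type siRNA replicate 1 (adjusted p = 0.120) or either mutant siRNA array (0.0594 without replicate 1, 0.156 without replicate 2). Psmd5, a chaperone of the same base, had 2377 and 2307 with the wild type siRNA, against 2961 and 3299 with the mutant siRNA and lay below without being called (-0.34 (SE 0.17, adjusted p = 0.164)). Psmg3, a chaperone of the 20S barrel, had 2107 and 1851 with the wild type siRNA, against 1136 and 1258 with the mutant siRNA (0.80 (SE 0.19, adjusted p = 0.0165)). Its partner Psmg4 had 1683 and 1708 with the wild type siRNA, against 1658 and 1801 with the mutant siRNA, with overlapping groups (0.05 (SE 0.18, adjusted p = 0.854)). Psmf1, described as an inhibitor of the proteasome in vitro, had 2749 and 2499.5 with the wild type siRNA, against 1658 and 1862 with the mutant siRNA (0.66 (SE 0.18, adjusted p = 0.0279)).

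Of 15 measured partners of the proteasome, 2 were up-regulated (13.3%) and 1 down-regulated (6.67%), with a median log2 fold change of 0.22. Over all genes tested these values were 17.4%, 10.6% and 0.19. The small cap subunit Sem1 had 11154.5 and 10662 with the wild type siRNA, against 7700.0 and 8098 with the mutant siRNA (0.54 (SE 0.14, adjusted p = 0.0236)). Usp14, a deubiquitinase that docks on the cap, had 11783 and 11344 with the wild type siRNA, against 8169.5 and 9146 with the mutant siRNA (0.50 (SE 0.14, adjusted p = 0.0328)). Ddi2, the protease that activates Nfe2l1, was down-regulated, with 79.3 and 64.8 with the wild type siRNA, against 276 and 293 with the mutant siRNA (-1.91 (SE 0.38, adjusted p = 0.00984)), and its wild type siRNA signals lay below the array median.

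**Figure D2:**
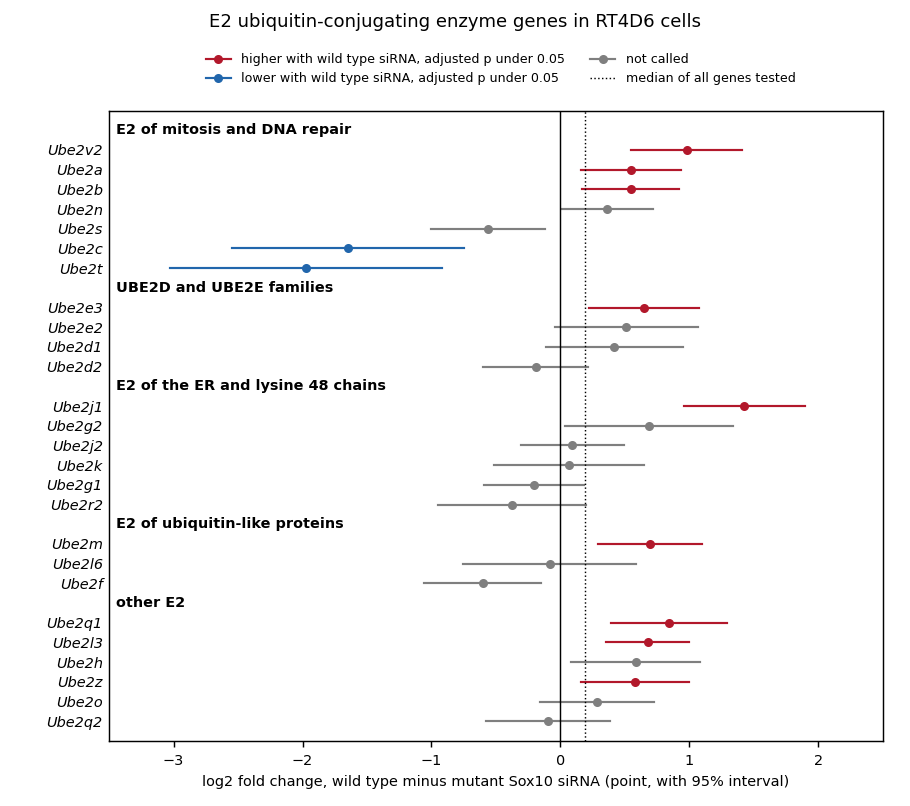
Log2 fold change (wild type minus mutant Sox10 siRNA) of the 26 E2 genes tested, by role. Points are estimates from 2 arrays a group and bars 95% intervals, red for the 9 genes called higher, blue for the 2 called lower, grey for the rest. Solid line, 0; dotted line, median of all genes tested (0.19). The E2 genes spread from Ube2t at -1.97 to Ube2j1 at 1.43.

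The E2 enzymes of mitosis and DNA repair moved in opposite directions, 2 lower (28.6%) and 3 higher (42.9%) of 7. Of all genes tested, 10.6% were called lower and 17.4% higher. Ube2c, which starts the ubiquitin chains that the anaphase-promoting complex puts on mitotic cyclins, had 852 and 2039.5 with the wild type siRNA, against 3446 and 5507 with the mutant siRNA. Both groups spread widely, yet they did not overlap, and the replicate 2 array was the higher in each. The log2 fold change was -1.65 (SE 0.39, adjusted p = 0.0191), and -1.98 and -1.31 within the pairs. Ube2t, the E2 of the Fanconi anaemia pathway of DNA crosslink repair, had 155 and 478 with the wild type siRNA, against 1116 and 1146 with the mutant siRNA. Here the mutant siRNA arrays lay together and the wild type siRNA arrays apart. At -1.97 (SE 0.46, adjusted p = 0.0173), its log2 fold change was the lowest of the 70 proteasome and E2 genes tested when all arrays were in the fit, and -2.81 and -1.14 within the pairs. Without wild type siRNA replicate 1 it was -1.14, less far down than Psmb9 at -1.23, and that of Ube2c was -0.99. Leaving out mutant siRNA replicate 2 ended the call of Ube2c (adjusted p = 0.107), and leaving out either mutant siRNA array that of Ube2t (0.0717 without replicate 1, 0.0713 without replicate 2). Ube2s, which extends the chains that Ube2c begins, is named after its values were seen. It had 5856 and 7269 with the wild type siRNA, against 8753 and 11827 with the mutant siRNA, without overlap but not called (-0.56 (SE 0.19, adjusted p = 0.0626)), and it was called with the replicate block (adjusted p = 0.00234).

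Of 26 measured ligase subunits, adaptors and substrates of cell division, 5 were down-regulated (19.2%) and 5 up-regulated (19.2%). Over all genes tested, 10.6% were called lower and 17.4% higher. The 5 lower were the cyclin-dependent kinase Cdk1, its cyclin Ccnb1, the topoisomerase Top2a, Birc5 of the chromosomal passenger complex, and Cdc20, an activator of the anaphase-promoting complex. Top2a had 691 and 1843 with the wild type siRNA, against 3882 and 4442 with the mutant siRNA (-1.80 (SE 0.40, adjusted p = 0.0144)). Cdk1 had 1163 and 2652 with the wild type siRNA, against 5159 and 6298 with the mutant siRNA (-1.62 (SE 0.35, adjusted p = 0.0131)). In both, as in Ube2c, the replicate 2 array was the higher of each group. The 5 higher were Btrc, Anapc10, Rbx1 and Anapc2, subunits of ligases, and Cdc34, itself an E2 but outside the symbol rule. Btrc, a substrate adaptor of a cullin ligase, had 826 and 589 with the wild type siRNA, against 258 and 239.7 with the mutant siRNA (1.57 (SE 0.25, adjusted p = 0.00489)).

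The higher members of the group were Ube2v2, Ube2a and Ube2b. Ube2v2, an inactive relative that pairs with Ube2n to build chains for signalling and DNA damage tolerance, had 4882 and 5247.5 with the wild type siRNA, against 2341 and 3140.1 with the mutant siRNA (0.98 (SE 0.19, adjusted p = 0.00892)), and leaving out mutant siRNA replicate 1 ended the call (adjusted p = 0.0583). Ube2n itself stood at 0.36 and was not called. Ube2a and Ube2b, the close paralogs of yeast Rad6 that act on chromatin and in DNA damage tolerance, had nearly equal changes of 0.55 and 0.54 (SE 0.17 and 0.17). Both calls were lost with the signals as deposited and with quantile normalization. Each gene has another tested probe set, at 0.11 for Ube2a and 0.29 for Ube2b, and neither of these was called.

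**Figure D3:**
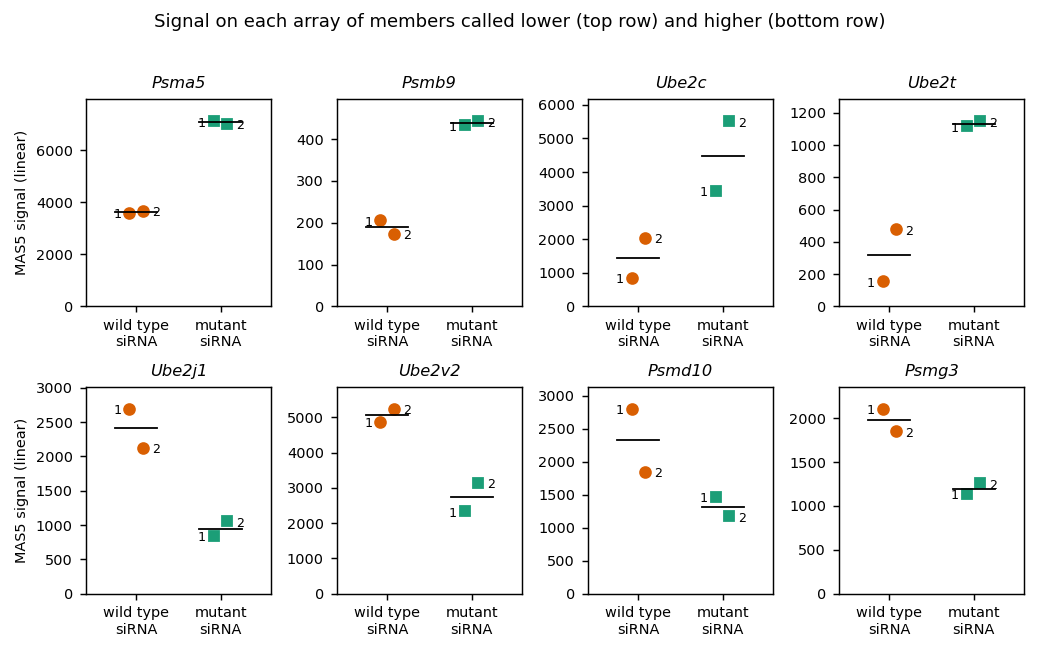
MAS5 signal (linear, axis from 0) on each array for 4 members called lower (top row) and 4 called higher (bottom row) with the wild type siRNA. Circles, wild type siRNA; squares, mutant siRNA; digits, replicate; bars, means of 2 arrays. The groups do not overlap in any of the 8, while Ube2c, Ube2t and Psmd10 have arrays of 1 group far apart.

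In the UBE2D and UBE2E families, broad partners of many ligases, only Ube2e3 of the 4 tested on a probe set of their own was called. Probe sets shared within these families are not counted here. The one shared by Ube2e1 and Ube2e2 was called higher (0.62). Of those shared by Ube2d2 and Ube2d3, the brightest was called higher (0.47), and the others, at 0.43 and -0.42, were not called. Ube2e3 had 4580.3 and 5095 with the wild type siRNA, against 2848 and 3728 with the mutant siRNA (0.65 (SE 0.19, adjusted p = 0.0348)). At the other end Ube2d2 had 2843 and 3399 with the wild type siRNA, against 3692 and 3816 with the mutant siRNA, without overlap but not called (-0.19 (SE 0.18, adjusted p = 0.444)). The Ube2e3 call was lost with the signals as deposited and with quantile normalization.

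Among the 6 E2 enzymes of the endoplasmic reticulum and of degradation chains, Ube2j1 had the largest increase of all members with all arrays in the fit. Ube2j1 is anchored in the membrane of the endoplasmic reticulum and tags misfolded proteins that are pulled out of it. Its signals were 2696 and 2130.3 with the wild type siRNA, against 841 and 1054 with the mutant siRNA, so that the lower wild type siRNA array still had more than 2 times the signal of the higher mutant siRNA array. Its log2 fold change was 1.43 (SE 0.21, adjusted p = 0.00349), a level 2.69-fold higher with the wild type siRNA, and Ube2j1 was called under every alternative tried with limma. Its relative Ube2j2 had 2076 and 2151 with the wild type siRNA, against 2079 and 2108 with the mutant siRNA, a difference of 0.09 with an interval of -0.31 to 0.49. Ube2r2, which works with cullin ligases, was the lowest of the 6, with 473 and 448 with the wild type siRNA, against 755 and 527 with the mutant siRNA (-0.38 (SE 0.25, adjusted p = 0.293)), and its mutant siRNA arrays were far apart. Ube2g2, another of the 6, stood at 0.69 without overlap and was not called (SE 0.28, adjusted p = 0.105). Its other tested probe set was called higher (0.85, adjusted p = 0.0301), a call lost under 4 of 13 alternatives. The median of the 6 was 0.08, and with quantile normalization it was -0.04.

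Of 18 measured genes of endoplasmic reticulum-associated degradation, 17 could be tested, with a median log2 fold change of 0.33. Of these 17, 4 were up-regulated (23.5%) and 1 down-regulated (5.88%), against 17.4% and 10.6% of all genes tested. Sel1l, the scaffold of the ligase that Ube2j1 serves, had 1492 and 1066 with the wild type siRNA, against 410.4 and 482 with the mutant siRNA (1.58 (SE 0.23, adjusted p = 0.00358)). Derl2, a channel protein of the same complex, had 2646 and 2652 with the wild type siRNA, against 1484 and 1299 with the mutant siRNA (1.01 (SE 0.18, adjusted p = 0.00742)). Herpud1, a stress-induced member of that complex, was lower, with 767 and 854 with the wild type siRNA, against 1486 and 1314.5 with the mutant siRNA (-0.71 (SE 0.20, adjusted p = 0.035)).

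Ube2g1, an E2 that extends degradation chains with cullin ligases, was on the study's list of down-regulated genes. Its 2 probe sets in the platform annotation were not called. The brighter had 2583 and 2578.5 with the wild type siRNA, against 3273 and 3009.5 with the mutant siRNA, without overlap and with a difference of -0.20 (SE 0.17, adjusted p = 0.396). The other had 1493 and 1901 with the wild type siRNA, against 2272 and 2169 with the mutant siRNA, again without overlap (-0.32 (SE 0.20, adjusted p = 0.264)). The interval of the brighter one, -0.59 to 0.18, leaves out a 2-fold reduction. The probe set that the study took for Ube2g1 has no symbol in the annotation used here and is no member. It had 63.2 and 113 with the wild type siRNA, against 396 and 337 with the mutant siRNA, and its wild type siRNA replicate 1 signal was below the array median. The log2 fold change was -2.04 (SE 0.40, adjusted p = 0.00941), a level 4.1-fold higher with the mutant siRNA, and -2.62 and -1.46 within the pairs. That probe set was chosen by the study on these same arrays, so its change is a description. Without mutant siRNA replicate 1 it was no longer called (adjusted p = 0.0735). The 3 probe sets therefore differ in size of change by over 1.5 on the log2 scale, and which part of a transcript each one reads was not analysed here. The Ube2g1 promoter window (chr10:57724258-57724557, plus strand) holds no Sox core and is shown because the study searched this gene for such cores. The study's search reached further upstream and to the end of the first intron, which this window does not cover.
Ube2g1: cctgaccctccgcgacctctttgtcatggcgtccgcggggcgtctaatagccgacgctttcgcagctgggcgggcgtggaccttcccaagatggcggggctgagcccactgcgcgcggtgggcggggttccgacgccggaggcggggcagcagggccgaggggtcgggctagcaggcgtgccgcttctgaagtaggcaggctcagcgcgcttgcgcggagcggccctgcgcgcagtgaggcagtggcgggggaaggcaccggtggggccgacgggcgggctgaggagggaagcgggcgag

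**Figure D4:**
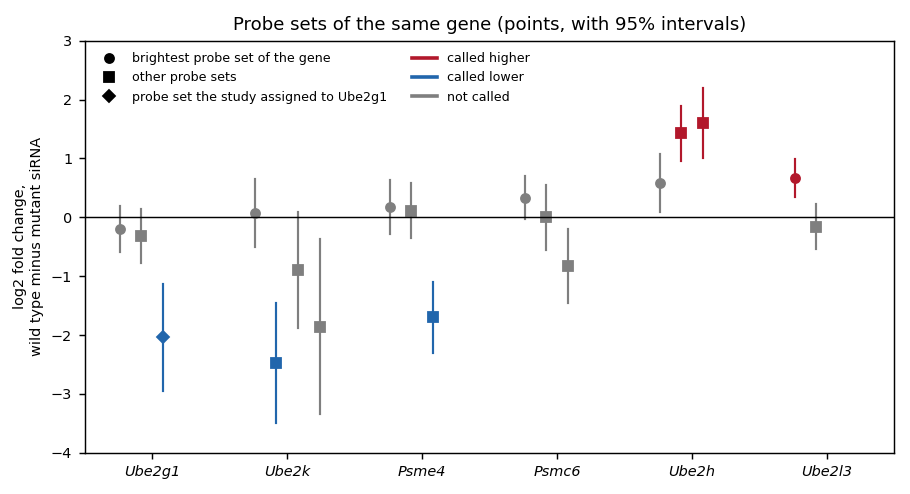
Log2 fold change (wild type minus mutant Sox10 siRNA) of every tested probe set of 6 genes, ordered within a gene by falling brightness. Points are estimates and bars 95% intervals; circles, brightest probe set; squares, others; diamond, the probe set the study assigned to Ube2g1. The bright probe sets of Ube2k and Psme4 lie near 0 while a dim one of each lies at -2.48 and -1.70.

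Probe sets that the annotation ties to the same gene disagreed in some other members. Of 19 members with at least 2 tested probe sets, 4 had log2 fold changes spread over more than 1, and in 4 a call was made only in a probe set other than the brightest. The median spread was 0.37. Over all 16125 probe sets tested, 12.1% were called lower and 14.6% higher. Ube2k, an E2 that builds degradation chains, had 6873 and 6983.5 with the wild type siRNA, against 5142 and 9496 with the mutant siRNA on its brightest probe set, with overlapping groups (0.07 (SE 0.25, adjusted p = 0.866)), and 77.6 and 163 with the wild type siRNA, against 469.9 and 941 with the mutant siRNA on a dimmer one (-2.48 (SE 0.45, adjusted p = 0.00716)). Psme4, a large activator that caps the barrel in the nucleus, had 2945 and 3293 with the wild type siRNA, against 3339 and 2553 with the mutant siRNA on its brightest probe set (0.17 (SE 0.20, adjusted p = 0.549)) and 218 and 238 with the wild type siRNA, against 936 and 654 with the mutant siRNA on a dimmer one (-1.70 (SE 0.27, adjusted p = 0.00457)). Ube2h went the other way: its brightest probe set had 1227 and 1087 with the wild type siRNA, against 923 and 718 with the mutant siRNA and was not called (0.58 (SE 0.22, adjusted p = 0.0797)), while the next in brightness had 1043 and 1059.6 with the wild type siRNA, against 416 and 409.9 with the mutant siRNA (1.43 (SE 0.21, adjusted p = 0.00351)) and the dimmest was called higher too (adjusted p = 0.00489). The Psme4 and Ube2h calls on these dimmer probe sets held under every alternative tried with limma. The Ube2k call ended when mutant siRNA replicate 2 was left out (adjusted p = 0.0560). In Ube2l3 the brightest probe set was called higher and the other stood at -0.16.

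Among the 3 tested E2 enzymes of ubiquitin-like proteins, 1 was called. Ube2m, which serves most cullins, was up-regulated, with 2823 and 2664 with the wild type siRNA, against 1670.1 and 1914 with the mutant siRNA (0.70 (SE 0.18, adjusted p = 0.0226)). Ube2f, which serves Cul5, lay below, with 988 and 1142 with the wild type siRNA, against 1587 and 1832 with the mutant siRNA, without overlap and at the edge of the threshold (-0.60 (SE 0.20, adjusted p = 0.0553)). It was called lower with the signals as deposited (adjusted p = 0.0350), with quantile normalization (0.0396) and with the replicate block (0.0253). Under 6 of 13 alternatives Ube2f was not called, and its other tested probe set stood at -0.18 and was not called. Ube2l6, the interferon-induced E2 for Isg15, had 242 and 270.0 with the wild type siRNA, against 237 and 346 with the mutant siRNA, with overlapping groups (-0.08, adjusted p = 0.854).

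Of the 6 other E2 genes tested, 3 were up-regulated. Ube2q1 had 4248.5 and 3020.3 with the wild type siRNA, against 2072 and 2149 with the mutant siRNA (0.84 (SE 0.20, adjusted p = 0.0174)). Ube2l3, which passes ubiquitin only to ligases that take it over on a cysteine, had 12192 and 11385 with the wild type siRNA, against 8023 and 7564 with the mutant siRNA (0.68 (SE 0.14, adjusted p = 0.0118)). Ube2z, which takes ubiquitin from the alternative E1 Uba6, stood at 0.58, and Ube2q2 was the lowest, with 587 and 627 with the wild type siRNA, against 657 and 712 with the mutant siRNA (-0.09 (SE 0.21, adjusted p = 0.769)). Of 12 measured E1 and ubiquitin genes, 11 could be tested, with a median of 0.34. Of these 11, 2 were up-regulated (18.2%, against 17.4% of all genes tested). Uba6 had 1578.5 and 1853 with the wild type siRNA, against 1066 and 723 with the mutant siRNA (1.04 (SE 0.25, adjusted p = 0.0183)). Sumo3, a ubiquitin-like modifier, had 4009 and 4162 with the wild type siRNA, against 2579 and 3263 with the mutant siRNA (0.57 (SE 0.18, adjusted p = 0.0457)).

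Of the genes matched by spelling only, Psmc3ip, a recombination factor, was down-regulated, with 291 and 360.2 with the wild type siRNA, against 741 and 816 with the mutant siRNA (-1.18 (SE 0.23, adjusted p = 0.00982)). The call was lost without either mutant siRNA array (adjusted p = 0.0503 without replicate 1 and 0.0639 without replicate 2). Psme3ip1 had 892 and 799 with the wild type siRNA, against 1098 and 934 with the mutant siRNA, without overlap but not called (-0.18 (SE 0.21, adjusted p = 0.538)).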

How the data were processed

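RNA of 4 RT4D6 samples was measured on one-colour Affymetrix rat expression arrays. The authors deposited linear intensity values, the MAS5 signals, scaled so that the mean of each array without its lowest and highest 2% is about 500.2 (submitters' processing notes name MAS5, with no version). The median normalization and detection calls of the paper are not in them.

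Log2 signals were centred by array median. Of 31042 non-control probe sets, 16125 reached the median of the array on 2 or more arrays. Limma 3.58.1 (R 4.3.3, lmFit and eBayes with a trend on intensity) gave the tests, with a threshold of 0.05 on p after Benjamini-Hochberg adjustment. The median log2 fold change of all tested probe sets was 0.13 (0.05 for signals as deposited, 0.08 for quantile-normalized ones). Symbols came from the platform annotation, which gives 436 probe sets several symbols and 9780 none. With 2 arrays a group, their number limits the precision.

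The members and the gene lists were chosen with earlier results of these data known. Per-array signals are given for every Ube2g1 probe set, the up to 10 lower and 10 higher members with the largest changes, the interferon-induced subunits and the extremes of each role, and for up to 3 called genes of each list. Probe sets shown for disagreeing within a gene were named after their values were seen.

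A fit with the replicate number as a block was an alternative, because the study made its samples in pairs. The correlation of same-numbered arrays, taken on deviations from group means, was 0.14. The other alternatives were other scalings, pseudocounts, filters and variance models, the methods' t-test, the mean of a gene's probe sets and each array left out in turn. The script was tested on simulated data. Python 3.11.15 and pandas 2.3.3 were used for counts, matplotlib 3.10.9 for plots, and the promoter windows are those of RefSeq.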

Additional observations from a re-analysis of the deposited data

How the results depend on the processing

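Directions of all called members held under every alternative, while many calls did not. The count of proteasome genes called higher, 9 of 44 with all arrays and the main settings, was 3 with quantile normalization, 4 with no filter, 0 without the intensity trend (limma, 8 at an unadjusted p under 0.05) and 17 with the replicate block, and between 0 and 7 with 1 array left out. The count called lower, 2, was between 1 and 2 with 1 array left out. The count of E2 genes called higher, 9 of 26, was 5 with the signals as deposited or with quantile normalization, 1 without the intensity trend, and between 2 and 5 with 1 array left out. The count of E2 genes called lower, 2, became 4 (with Ube2f and Ube2s) with the signals as deposited, quantile normalization, the 25th percentile as pseudocount, the replicate block or centring on the tested probe sets, an alternative chosen after seeing the data. It was 0 without the intensity trend (limma, 3 at an unadjusted p under 0.05), and between 0 and 4 with 1 array left out. The methods' t-test gave 0 of each of these 4 counts after Benjamini-Hochberg adjustment and, at an unadjusted p under 0.05, 10 higher and 3 lower proteasome genes and 7 higher and 0 lower E2 genes. Over all probe sets, 2348 were higher and 1956 lower. Without the intensity trend these were 1177 and 1187, with the methods' t-test after adjustment 2 and 0, and with 1 array left out 924 to 2128 and 706 to 2519. No count over all probe sets is given for the other scalings, the filters or the replicate block. The median of the proteasome genes was 0.19 with quantile normalization, against 0.32. The probe set that the study took for Ube2g1 missed the threshold with the adjusted t-test (-2.04, adjusted p = 0.209) and ran between -2.48 and -1.59 with 1 array left out. Each fit without an array assumes that the lone array left varies like the other group. The cause of these differences was not tested.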

Other observations

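Psmb6, Psme3, Ube2d3, Ube2e1 and Ube2v1 were measured only by probe sets that the annotation ties to several genes, and no gene was named from these. The probe set shared by Psmb6 and Psmb6l1, of which Psmb6 is the caspase-like beta subunit, had 7680.4 and 6286 with the wild type siRNA, against 5926 and 5173 with the mutant siRNA (0.41 (SE 0.17, adjusted p = 0.104), limma). That shared by Psma3 and Psma3l was bright, with 16715 and 17102 with the wild type siRNA, against 11689 and 12269 with the mutant siRNA, and was called higher (0.58 (SE 0.13, adjusted p = 0.0162)), while the only probe set of Psma3 alone was dimmer and stood at 0.15. The probe set shared by Ube2e1 and Ube2e2 had 4658 and 4644.5 with the wild type siRNA, against 3126 and 3264 with the mutant siRNA and was called higher (0.62 (SE 0.16, adjusted p = 0.0234)). Of the 3 tested probe sets shared by Ube2d2 and Ube2d3, the brightest was called higher (0.47 (SE 0.14, adjusted p = 0.0374)) and another, with 1763 and 2158 with the wild type siRNA, against 2727 and 2778 with the mutant siRNA, lay the other way (-0.42 (SE 0.19, adjusted p = 0.131)). The brightest of those shared by Ube2v1 and Ube2v1l1 had 5624 and 5008 with the wild type siRNA, against 6445 and 6001 with the mutant siRNA and was not called (-0.15).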
